A study of Mus musculus with 4 samples.

Results

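Rete testis (RT) epithelial cells were described in single-cell RNA counts from the P14 mouse testis, as the barcodes with 1000 to 4500 detected genes that held at least 3 UMIs of *Pax8* and *Rmst* together and at least 3 UMIs of *1500015O10Rik*. They were thus selected on measured values of these 3 genes, which are given below as a description and were not tested. Of 46001 barcodes in all, 22567 lay within these limits of detected genes, and 177 of those (0.784%) were RT cells. A UMI (unique molecular identifier) marks 1 captured RNA molecule, so that counts of UMIs are counts of molecules.

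The RT is the network of epithelial channels that collects sperm and fluid from the seminiferous tubules and passes them on to the efferent ducts. Its cells are simple epithelial cells that share a gonadal origin with Sertoli cells and express the transcription factor PAX8, keratins and E-cadherin. SOX17, an HMG-box transcription factor best known from endoderm and blood vessels, is also made by RT cells, and the study removed it to ask what the RT contributes to the valve-like ends of the seminiferous tubules next to it.

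There were 4 libraries, control 1, control 2, *Sox17*-cKO 1 and *Sox17*-cKO 2, each from the proximal testis of 3 pooled pups on a C57BL/6 background, with 5000 cells targeted, so that each genotype had 2 replicates and single pups cannot be separated. The *Sox17*-cKO mice carried SF1Cre together with Sox17flox/flox. For the controls the sample records give SF1Cre, whereas the methods describe Sox17flox/flox littermates, and the difference was not resolved here. SF1Cre is driven by *Nr5a1* (SF1) sequences, which are active in somatic cells of the gonad and in the adrenal and pituitary, so that the driver is not limited to RT cells, and the supernatant with interstitial cells had been discarded during preparation.

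The 4 libraries held 31, 61, 24 and 61 RT cells (control 1, control 2, *Sox17*-cKO 1 and *Sox17*-cKO 2, an order kept below) with 248273, 534013, 200593 and 540422 UMIs. Levels are given in CPM, the UMIs of a gene per 1000000 UMIs of the RT cells of a library, and 1 UMI was worth 1.85 to 4.99 CPM. An RT cell had a median of 7964 to 8428 UMIs in the libraries, against 5033 to 7869 UMIs in the other retained cells, and a median of 5.15 to 6.99% mitochondrial UMIs, with 1 RT cell of control 2 at 62.3%. No RT barcode was shared between libraries. The tables of control 1 and *Sox17*-cKO 1 were made with Cell Ranger 6.0.2 and those of control 2 and *Sox17*-cKO 2 with 6.1.2, so the Cell Ranger version goes with the replicate number.

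The label was checked against *Krt8* and *Cdh1*, a keratin and E-cadherin, which the selection did not use. *Krt8* was at 96.7, 107, 120 and 183 CPM in the RT cells and at 0.736 CPM in the other retained cells (mean of 4 libraries), and *Cdh1* at 109, 161, 130 and 166 CPM against 1.21 CPM. At least 1 UMI of either gene was found in 23 of 31, 51 of 61, 17 of 24 and 50 of 61 RT cells. After each cell was thinned to 3000 UMIs, *Cdh1* had a UMI in 31.2% of 173 RT cells, in 0.157% of Sertoli-gated and in 0.0238% of fibroblast-gated cells. Sertoli-gated, germ-gated, fibroblast-gated and endothelial-gated cells here are retained cells outside the RT set with at least 20, 20, 50 or 10 UMIs, in that order, of 4 markers of that class, limits that were set after the counts were seen. The 4 defining endothelial markers *Pecam1*, *Cdh5*, *Cldn5* and *Ptprb* were at or near 0, with 1, 2, 0 and 4 UMIs over all 177 RT cells. Other genes of the endothelial list, *Kdr* and *Egfl7*, did have UMIs in RT cells and are given below.

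Markers of other testis cells were also present in RT cells. Those of Sertoli cells, germ cells, fibroblasts, peritubular myoid cells, Leydig cells and macrophages had lower sums there than in the other cells in every library. The sum of mesothelium markers was lower in control 2 only. The summed level of the 10 Sertoli markers was 1176 to 2030 CPM in RT cells against 3478 to 7102 CPM in the other cells, and the only one of the 10 higher in RT cells was *Cldn11*, a tight junction protein. The 10 germ cell markers summed to 129 to 538 CPM in RT cells against 2167 to 3630 CPM, with none of the 10 higher in RT cells. Both sums were higher in the replicate 1 libraries (2030 and 2014 CPM of Sertoli markers, 383 and 538 CPM of germ markers) than in the replicate 2 libraries (1176 and 1504 CPM, 129 and 215 CPM). Some other sums were higher in RT cells in every library. The 6 efferent duct and multiciliated markers summed to 318, 195, 219 and 163 CPM against 129, 43.9, 139 and 46.2 CPM, with 4 of the 6 higher. The 7 markers of Sertoli cells at the valve-like tubule ends summed to 459, 496, 504 and 555 CPM against 264, 300, 250 and 319 CPM, with 2 of the 7 higher. Whether efferent duct cells are among the RT cells was not tested. The part that free RNA or a second cell in a droplet has in these sums was not tested, and no doublets were called.

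The values at the edge of the selection were as follows. Among retained cells with at least 3 UMIs of *1500015O10Rik*, 14 had 2 UMIs of *Pax8* and *Rmst* together and 8 had 3 UMIs. Another 461 such cells had none, and 453 of these held at least 20 UMIs of fibroblast collagens and decorin. *1500015O10Rik*, the gene of augurin, was therefore not particular to RT cells, and its mean was 117 CPM in fibroblast-gated cells. Among retained cells with enough *Pax8* and *Rmst*, 19 had no UMI of *1500015O10Rik*, 8 had 1 UMI, 1 had 2 UMIs and 3 had 3 UMIs.

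More barcodes met the selection above 4500 detected genes than below it. There were 35, 129, 10 and 95 of them, 269 in all or 60.3% of the 177 RT cells and these barcodes together, with medians of 36480 to 43073 UMIs. They were left out of the RT set, as in the study's own filter, and were used as a second, separate set of barcodes from the same libraries. Whether they hold more than 1 cell was not tested.

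The genes that stood highest in RT cells over the other retained cells, beside those of the selection, were led by *Mia*, *Slc34a2* and *Plet1*. These folds describe the set and were not tested, because the cells were selected on their own counts. The plot of levels by library shows the 25 genes with the largest ratio. *Mia*, a small secreted protein first known from melanoma and cartilage, was at 109, 225, 214 and 818 CPM in RT cells and at 0.919 CPM in the other cells. *Slc34a2*, a sodium-phosphate transporter of apical membranes, was at 101, 318, 209 and 242 CPM, 365 times the mean of the other cells. *Plet1*, a surface protein of placental and ductal epithelium, was at 153, 217, 169 and 215 CPM, 348 times that mean. *Mia* varied most among these 3, and its highest library was *Sox17*-cKO 2.

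**Figure D1:**
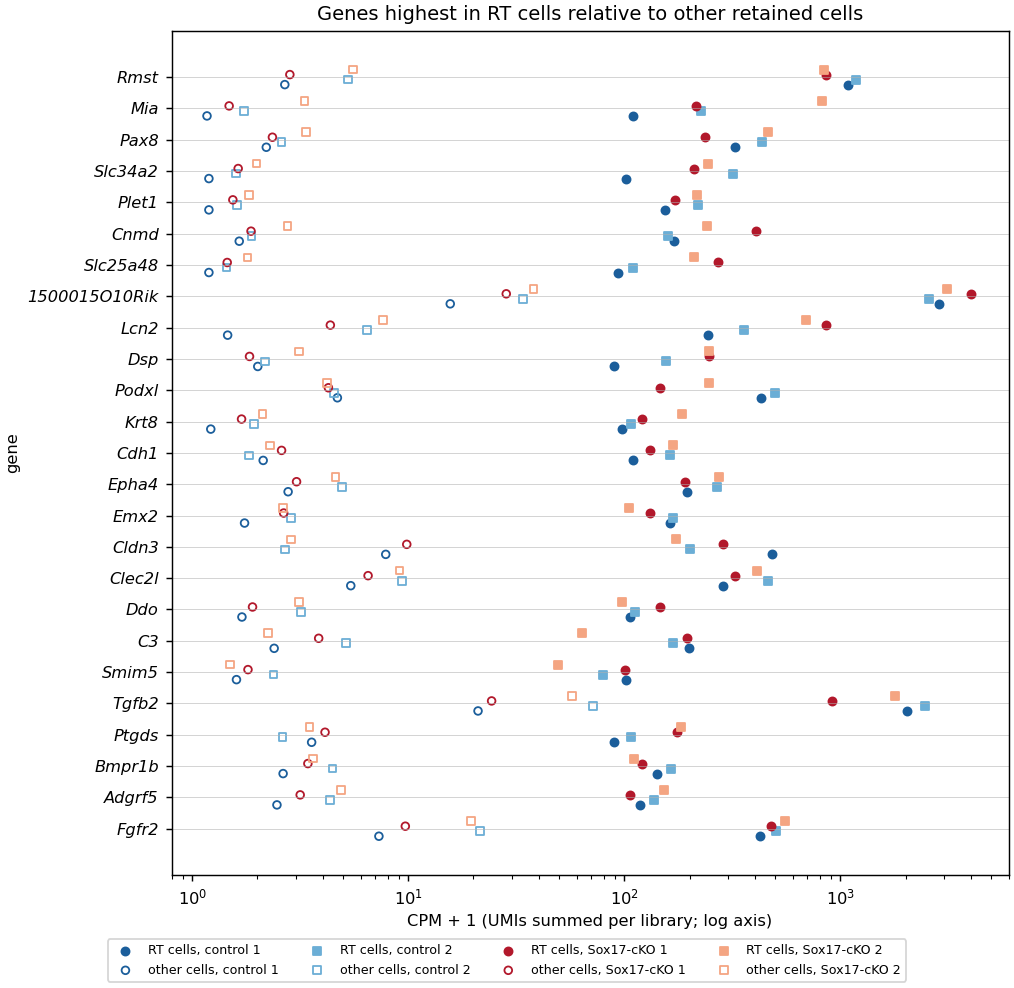
Levels of the 25 genes with the largest ratio of RT cells to other retained cells. Filled symbols are RT cells and open symbols the other retained cells of the same library, on a log axis of CPM plus 1, with blue for control and red for *Sox17*-cKO, and each RT value lies to the right of all 4 values of the other cells for the same gene.

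*Dsp*, *Krt8*, *Cdh1* and *Cldn3*, of cell junctions and keratin filaments, were among these 25 genes. Of 20 genes of keratins and epithelial adhesion, 16 were higher in RT cells than in the other cells and 8 were over 4 times as high (with at least 20 UMIs in RT cells, as for the counts below). The share of all genes that were higher in RT cells is not given here. This count and those of other lists below therefore do not set a list apart from genes at large. *Dsp*, which encodes desmoplakin of the desmosome, was at 184 ± 76.2 CPM (SD, n = 4 libraries) against 1.28 CPM. This mean pools both genotypes, and *Dsp* had a UMI in 55.4% of control and 83.5% of *Sox17*-cKO RT cells. *Cdh16*, the kidney cadherin, was at 62.4 ± 31.8 CPM against 0.237 CPM, and *Krt18*, the partner of *Krt8* in keratin filaments, at 75.2 ± 13.7 CPM against 0.628 CPM. *Cldn3*, a claudin of epithelial tight junctions, was at 285 ± 141 CPM against 4.80 CPM. *Epcam*, in contrast, was at 98.7 ± 64.1 CPM in RT cells and 103 CPM in the other cells, and germ-gated cells had a UMI of it more often after thinning (45.6%) than RT cells (22.5%).

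Several genes of fluid and ion transport outside these 25 were also higher in RT cells. *Car2*, a carbonic anhydrase, was at 81.0 ± 9.56 CPM against 0.825 CPM, *Clic5*, a chloride channel protein of apical cytoskeleton, at 136 ± 40.7 CPM against 11.1 CPM, and *Cftr*, the chloride channel of secretory epithelia, at 23.8 ± 7.45 CPM against 2.17 CPM. *Ezr*, which encodes ezrin of microvilli, was at 386 ± 63.5 CPM against 29.6 CPM. Of 33 genes of water and ion transport, 18 were higher in RT cells, 6 were over 4 times as high and 6 had no UMI in any RT cell.

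Transcription factors of the urogenital ridge and of epithelia were present together. *Emx2*, required for the urogenital system, was at 161, 167, 130 and 104 CPM against 1.47 CPM in the other cells. *Elf3*, an ETS factor of epithelia, was at 48.3, 30.0, 79.8 and 55.5 CPM against 0.210 CPM. *Wt1* and *Gata6*, which Sertoli cells share, were at 373 ± 116 and 191 ± 51.8 CPM in RT cells and at 268 and 118 CPM in Sertoli-gated cells. *Nr2f1*, an orphan nuclear receptor, was at 61.9 ± 29.5 CPM against 0.349 CPM in Sertoli-gated cells.

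*Foxj1*, the regulator of motile cilia, was at 145, 63.7, 79.8 and 62.9 CPM in RT cells and at 1.02 CPM in the other cells. A UMI was seen in 41.2% of RT cells, and after thinning in 17.9% of RT cells against 0.157% of Sertoli-gated and 0.477% of germ-gated cells. Of a list of 32 cilium genes with *Foxj1* among them, 23 were higher in RT cells than in the other cells, and *Foxj1* alone, of those with at least 20 UMIs in RT cells, was over 4 times as high. *Rsph1*, a radial spoke gene of motile cilia, was at 80.7 ± 25.2 CPM against 67.5 CPM in the other cells.

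The receptor gene *Kdr*, which encodes the VEGF receptor of endothelium, was at 491, 474, 419 and 294 CPM in RT cells, against 604 CPM in endothelial-gated and 2.71 CPM in Sertoli-gated cells (means of 4 libraries). It had a UMI in 79.7% of RT cells, while the 4 markers of the endothelial gate were at or near 0 there. *Egfl7*, also on the endothelial list, had a UMI in 18.1% of RT cells. After thinning this was 7.51% of RT cells against 88.7% of endothelial-gated cells. The 6 genes of the list summed to 320 to 532 CPM in RT cells against 45.3 to 93.5 CPM in the other cells, and *Kdr* alone was higher in RT cells. The endothelial genes were thus not all present together. *Podxl*, a sialomucin of podocytes and endothelium, was at 427, 494, 145 and 244 CPM, with both *Sox17*-cKO libraries below both controls, and the difference was not past the threshold (log2 fold change -1.24, adjusted p = 0.24 from edgeR, the test described below).

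Of ligand genes, *Tgfb2* stood out in RT cells, at 2026, 2472, 917 and 1786 CPM against 42.4 CPM in the other cells and 10.7 CPM in Sertoli-gated cells. Among 73 growth factors and other ligands, 28 were higher in RT cells than in the other cells, 10 were over 4 times as high and 14 had no UMI. *Efnb2*, a membrane-bound ephrin, was at 133 ± 52.4 CPM against 10.3 CPM, and *Igfbp5*, which binds insulin-like growth factors, at 853 ± 373 CPM against 56.6 CPM. The receptor genes *Fgfr2* (488 ± 55.1 CPM), *Epha4* (231 ± 45.4 CPM) and *Bmpr1b* (133 ± 23.8 CPM) were among the 25 genes with the largest ratio.

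The genes lowest in RT cells relative to the other cells were of fibroblasts and muscle. *Col1a2* was at 4.03, 37.5, 4.99 and 38.9 CPM in RT cells and at 3259 CPM in the other cells. *Col3a1*, *Col1a1*, *Col6a3*, *Dcn*, *Mfap4*, *Smoc2* and *Fbln5* of the connective tissue matrix, and *Acta2* and *Tpm2* of contractile cells, made up the rest of the 10. The fibroblast collagens were higher in the replicate 2 libraries, in which fibroblast-gated cells were also more numerous (1666 cells in control 2 against 692 in control 1).

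RT cells also differed among themselves. With each of 173 cells thinned to 3000 UMIs and libraries kept apart, the ratio of the variance to the mean over cells, which is about 1 for pure counting, had a median of 1.13 over 1010 genes with a mean of at least 0.5 UMIs. It was 32.8 for *Malat1*, a nuclear RNA, 8.65 for *Mt1*, a metallothionein, and 6.46 for *Fos*, and immediate early genes such as *Btg2*, *Jun* and *Egr1* were also among the first 40. *Kctd14*, a potassium channel domain protein, had ratios of 5.15 and 4.26 in the controls and of 2.36 and 1.10 in the *Sox17*-cKO libraries. For *Wfdc2*, a secreted WAP-domain protein, they were 0.90 and 1.83 in the controls against 4.40 and 6.94 in the *Sox17*-cKO libraries. The ratio grows with the level of a gene, and these differences were not tested.

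The targeted gene was examined first. *Sox17* (ENSMUSG00000025902, chr1:4490931-4497354 of GRCm38, minus strand) had 91 and 175 UMIs in the RT cells of the controls and 8 and 18 in those of the *Sox17*-cKO libraries, or 367, 328, 39.9 and 33.3 CPM. The groups did not overlap, and the labels of all 4 libraries held. *Sox17* changed by a log2 fold of -3.31 in *Sox17*-cKO over control (SE 0.367, adjusted p = 0.00169 from edgeR, adjusted by the method of Benjamini and Hochberg). The threshold of 0.05 was passed in all 12 alternatives that changed the cells, libraries or fit. A UMI of *Sox17* was found in 74.2% and 60.7% of control RT cells, against 25% and 26.2% of those of the *Sox17*-cKO libraries. No RT cell of the *Sox17*-cKO libraries held more than 3 UMIs, while single control cells held up to 16 and 35. The exons removed from the floxed allele are not given in the sources used here, and a UMI therefore does not show an intact transcript.

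**Figure D2:**
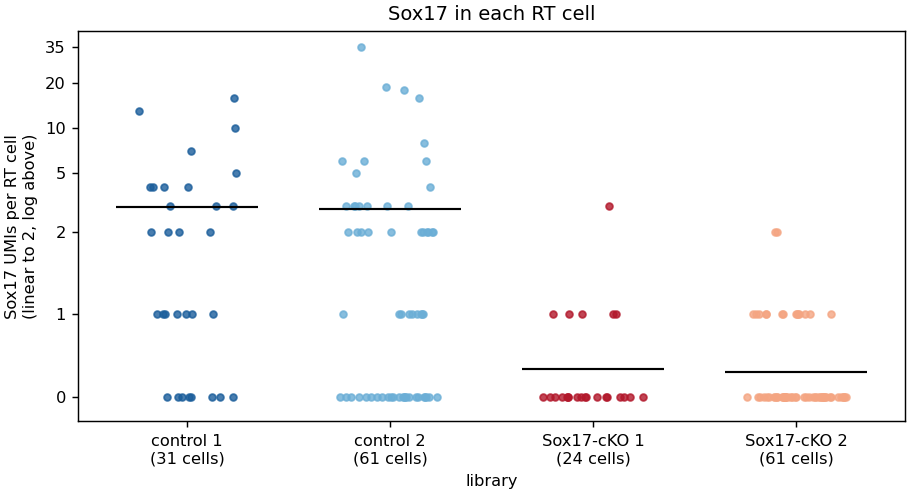
UMIs of *Sox17* in each RT cell by library (y axis linear to 2 and logarithmic above), with points spread sideways for visibility and a line at the mean. The mean per cell was 2.94 and 2.87 UMIs for the controls, against 0.33 and 0.295 UMIs for *Sox17*-cKO.

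Over the whole transcriptome of RT cells, 6424 genes apart from the 3 of the selection were tested between the genotypes, with UMIs summed per library. Of these, 20 genes (0.311% of the genes tested) were lower and 13 (0.202%) were higher in the *Sox17*-cKO libraries, and 392 had an unadjusted p under 0.05. All 33 differed without overlap between the groups, which was also true of 15.4% of all genes tested in the lower and 17.2% in the higher direction. The median log2 fold change of all genes was 0.00. The number of calls changed when a library was left out, and the cause was not tested. With a library left out, 1 library stands against 2, so that the spread comes from the genotype that keeps both and the single library is assumed to vary alike, and calls kept or lost in these fits are a description of each gene's dependence on a library. The plot of the named genes by library shows the 15 genes with the smallest p in each direction among genes without overlap between the groups.

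**Figure D3:**
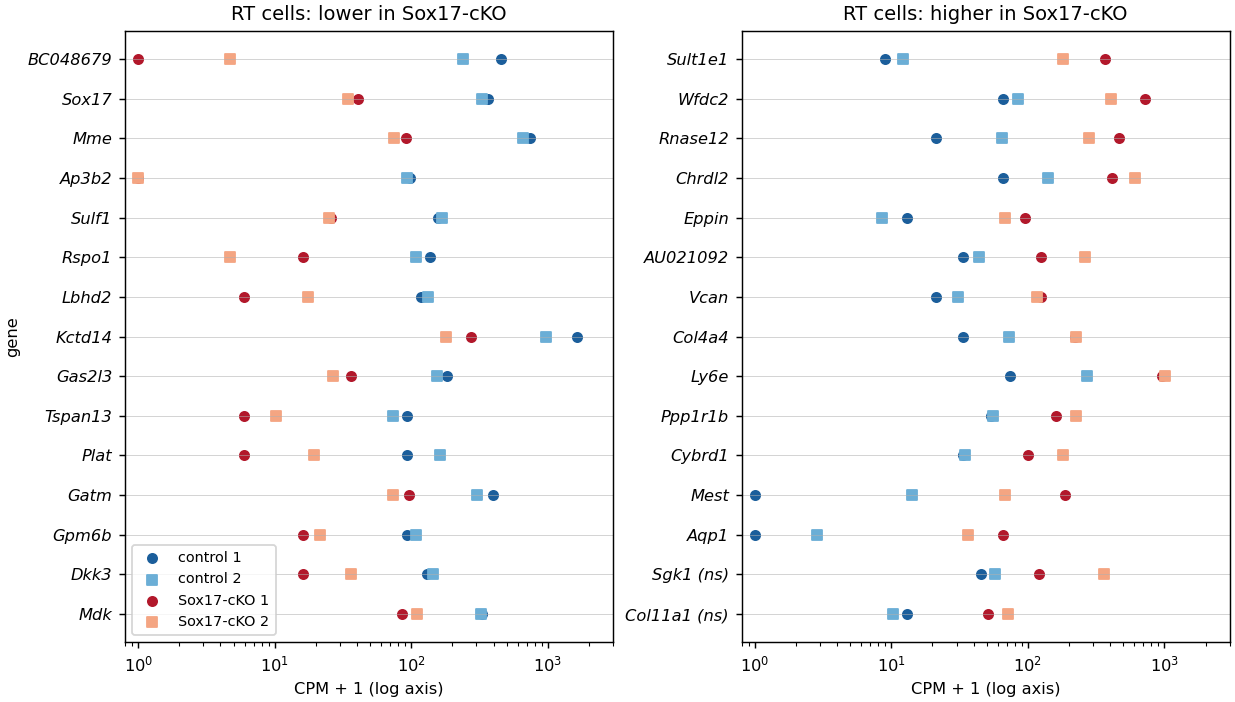
Levels in RT cells, by library, of the 15 genes with the smallest p in each direction among genes without overlap between the groups. The log axis is CPM plus 1, with blue for control, red for *Sox17*-cKO, circles for replicate 1 and squares for replicate 2. Both *Sox17*-cKO libraries lie on one side of both controls in every row because the genes were chosen so. The mark ns is for *Sgk1* and *Col11a1*, which were not past the threshold.

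Past the threshold in all 12 of these alternatives were 9 genes, 7 lower and 2 higher. The lower ones beside *Sox17* were *BC048679*, *Mme*, *Ap3b2*, *Rspo1*, *Lbhd2* and *Gas2l3*, and the higher ones were *Sult1e1* and *Wfdc2*. The 250 bases upstream of the start are printed for *BC048679*, *Mme*, *Sult1e1* and *Wfdc2*, which had the smallest p in each direction apart from *Sox17*, and for *Ap3b2*, the neighbour of *BC048679*. They are RefSeq sequences of GRCm38.p6, written 5′ to 3′ on the strand of the gene and from the most upstream RefSeq start where several are listed, with letters of the SOX core motifs ACAAT and ACAAAG in capitals, on either strand (ATTGT and CTTTGT are their complements). For *Mme* and *Wfdc2* the RefSeq start lies inside the gene as GENCODE draws it, so these windows do not lie upstream of the gene coordinates given below.
BC048679 (chr7:81498331-81498580, minus strand): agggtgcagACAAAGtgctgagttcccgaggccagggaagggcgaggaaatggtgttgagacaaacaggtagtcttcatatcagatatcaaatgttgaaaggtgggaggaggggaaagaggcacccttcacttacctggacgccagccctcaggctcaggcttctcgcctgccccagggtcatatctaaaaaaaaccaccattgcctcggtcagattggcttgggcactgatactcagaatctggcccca
Mme (chr3:63294961-63295210, plus strand): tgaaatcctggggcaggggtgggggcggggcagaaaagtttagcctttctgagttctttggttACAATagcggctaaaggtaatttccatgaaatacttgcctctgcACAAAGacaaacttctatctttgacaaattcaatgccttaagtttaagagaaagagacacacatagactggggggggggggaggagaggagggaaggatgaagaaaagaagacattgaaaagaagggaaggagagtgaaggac
Ap3b2 (chr7:81493926-81494175, minus strand): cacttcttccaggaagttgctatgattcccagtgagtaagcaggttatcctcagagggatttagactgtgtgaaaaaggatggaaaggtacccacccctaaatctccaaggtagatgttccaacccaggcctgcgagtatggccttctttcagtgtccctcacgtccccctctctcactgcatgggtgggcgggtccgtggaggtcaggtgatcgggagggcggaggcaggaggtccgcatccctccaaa
Sult1e1 (chr5:87591612-87591861, minus strand): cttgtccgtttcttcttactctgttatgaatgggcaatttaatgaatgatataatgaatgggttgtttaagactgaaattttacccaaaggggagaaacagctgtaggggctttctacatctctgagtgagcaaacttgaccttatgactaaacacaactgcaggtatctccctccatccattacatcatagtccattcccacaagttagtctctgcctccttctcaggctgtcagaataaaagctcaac
Wfdc2 (chr2:164562465-164562714, plus strand): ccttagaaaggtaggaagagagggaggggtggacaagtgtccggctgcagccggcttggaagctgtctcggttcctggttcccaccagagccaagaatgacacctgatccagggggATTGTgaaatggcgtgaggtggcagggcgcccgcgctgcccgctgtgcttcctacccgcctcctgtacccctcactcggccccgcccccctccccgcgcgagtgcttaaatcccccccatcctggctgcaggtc
In the same window ACAAT was held by 28.2% and ACAAAG by 16.5% of 27025 promoters, and either by 39.3%, so a match is common and describes the letters only. Of the 20 genes called lower, 13 were matched to a promoter and 7 of these held either motif. Of the 13 genes called higher, 9 were matched and 1 held either, against 26.3% of 5092 matched genes among all tested.

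*BC048679* (ENSMUSG00000061877, chr7:81494275-81498281 of GRCm38, minus strand), a protein-coding gene of unnamed product, had 112, 127, 0 and 2 UMIs in RT cells, or 451, 238, 0 and 3.70 CPM. It was found in 56 of 92 control RT cells and in 2 of 85 RT cells of the *Sox17*-cKO libraries. The pooled level was 113 times as high in the controls, with a 95% interval of 31.0 to 940 that covers counting error only, and the adjusted p was 0.00108 (edgeR). *Ap3b2* (ENSMUSG00000062444, chr7:81460399-81493925, minus strand), the neuronal beta subunit of a vesicle coat adaptor, lies 350 bases further on the same strand. It had 24, 49, 0 and 0 UMIs, which is at least 23-fold lower in the *Sox17*-cKO libraries with a floor of 3 UMIs over the group (adjusted p = 0.00194, edgeR). Both neighbours were almost confined to controls among these RT cells, and since they are read in the same direction, reads of one transcript that runs into the other gene cannot be told apart here.

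*Mme* (ENSMUSG00000027820, chr3:63241537-63386030), the peptide-cleaving surface enzyme neprilysin, was at 741, 655, 89.7 and 74.0 CPM. It was detected in 30 of 31 and 56 of 61 control RT cells and in 10 of 24 and 29 of 61 of the *Sox17*-cKO libraries. Its change on the log2 scale was -3.15 (SE 0.352, edgeR adjusted p = 0.00169), and over the libraries left out in turn it lay between -3.29 and -2.99.

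*Rspo1* (ENSMUSG00000028871, chr4:124986430-125009099), a secreted amplifier of WNT signalling, was at 137, 107, 15 and 3.70 CPM, from 34, 57, 3 and 2 UMIs. The log2 fold change was -4.08 (SE 0.578, adjusted p = 0.00806, edgeR), but -4.96 without *Sox17*-cKO 1 and -3.00 without *Sox17*-cKO 2. A UMI was found in 45 of 92 control RT cells and in 5 of 85 RT cells of the *Sox17*-cKO libraries. In fibroblast-gated cells *Rspo1* was at 19.2 CPM and in Sertoli-gated cells at 0.268 CPM.

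*Lbhd2*, which encodes an LBH-domain protein, was at 117, 131, 4.99 and 16.7 CPM, and *Gas2l3*, a linker of actin and microtubules, at 181, 154, 34.9 and 25.9 CPM. Their log2 fold changes were -3.26 and -2.55, with adjusted p of 0.00973 and 0.0125 (edgeR). The value of *Lbhd2* was -4.57 without *Sox17*-cKO 2. Both were several times as high in each control as in either *Sox17*-cKO library.

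*Sult1e1* (ENSMUSG00000029272, chr5:87575969-87591594, minus strand), the estrogen sulfotransferase that inactivates estrogens, was at 8.06, 11.2, 369 and 179 CPM. Its log2 fold change was 4.65 (SE 0.533, adjusted p = 0.00169, edgeR), and it lay between 4.07 and 5.11 with a library left out. A UMI was found in 6 of 24 and 21 of 61 cells of the *Sox17*-cKO libraries against 1 of 31 and 5 of 61 control cells, where a cell without a UMI may still hold the transcript, and 1 cell of *Sox17*-cKO 1 held 26 of its 74 UMIs.

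*Wfdc2* (ENSMUSG00000017723, chr2:164562413-164568510) was at 64.4, 84.3, 718 and 403 CPM, with a log2 fold change of 2.84 (SE 0.390, adjusted p = 0.00776, edgeR). It had a UMI in 16 of 24 and 44 of 61 RT cells of the *Sox17*-cKO libraries, and in 24 of 92 control RT cells. *Eppin*, an epididymal protease inhibitor whose gene lies on the opposite strand of chromosome 2 with its 3′ end 19833 bases past that of *Wfdc2*, was at 12.1, 7.49, 94.7 and 66.6 CPM (3.03, adjusted p = 0.0297, edgeR). The call of *Eppin* was lost without control 2 (2.60) and without *Sox17*-cKO 2 (3.30). It was also lost with DESeq2 (adjusted p = 0.104). With edgeR it was lost with cells under 10% mitochondrial UMIs (adjusted p = 0.0551) and with the gate of 5 UMIs (0.136). A required UMI of *Krt8* or *Cdh1* (0.0956) and no upper limit on detected genes (0.106) ended it too. In the gated barcodes over 4500 genes alone it was not past the threshold (0.24). The pair of *Wfdc2* and *Eppin* and that of *BC048679* and *Ap3b2* were the only neighbours within 100000 bases among the 33 called genes.

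Of the other genes called lower, 4 were also past the threshold in each fit with a library left out. *Sulf1*, an enzyme that trims heparan sulfate on the cell surface, was at 157, 167, 24.9 and 24.1 CPM (log2 fold change -2.76, adjusted p = 0.00806, edgeR). *Kctd14* was at 1647, 966, 274 and 179 CPM (-2.59, adjusted p = 0.0125), and *Gatm*, which makes the precursor of creatine, at 395, 301, 94.7 and 72.2 CPM (-2.13, adjusted p = 0.0195). *Dkk3*, of the Dickkopf family of secreted proteins, was at 129, 142, 15 and 35.2 CPM (-2.29, adjusted p = 0.0349). Without *Sox17*-cKO 2 the value of *Dkk3* was -3.19. Other alternatives ended some of these calls, that of *Dkk3* with DESeq2 (adjusted p = 0.0932) and the gate of 5 UMIs (0.0607), and that of *Kctd14* with no upper limit on detected genes (0.065). In the gated barcodes over 4500 genes alone none of the 4 was past the threshold (0.0561 to 0.104).

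Another 9 genes called lower lost the call when 1 library was left out, all with the same sign. With DESeq2 the call was also lost for all of them but *Plat*. The gate of 5 UMIs ended it for *Gpm6b*, *Ltbp1*, *Abcb1a*, *5930412G12Rik*, *Arl4c* and *Pcsk6*. The limit of 10% mitochondrial UMIs ended it for *Gpm6b*, *Mdk*, *Ltbp1*, *5930412G12Rik* and *Arl4c*. A required UMI of *Krt8* or *Cdh1* ended it for *Abcb1a* and *5930412G12Rik*. With no upper limit on detected genes it was lost for *Ltbp1* and *Arl4c*. In the gated barcodes over 4500 genes alone it was lost for *Ltbp1*, *Arl4c*, *Plat* and *Mdk*. *Plat*, tissue plasminogen activator, was at 92.6, 161, 4.99 and 18.5 CPM (-3.20), and without control 2 its adjusted p was 0.114 (edgeR, as for all values here). *Tspan13*, a tetraspanin (-3.33), and *Gpm6b*, a membrane glycoprotein (-2.45), were also lost without control 2, with 0.0627 and 0.161, as was *Arl4c*, a small GTPase (-1.74, then 0.186). Without *Sox17*-cKO 2 the log2 fold changes of *Plat* and *Tspan13* were -4.65 and -3.95. *Mdk*, the heparin-binding growth factor midkine, was at 330, 320, 84.7 and 109 CPM (-1.75) and was lost without either control (0.084 without control 1 and 0.0617 without control 2). *Ltbp1*, which holds latent TGF-beta in the matrix, was at 68.5, 76.8, 15 and 11.1 CPM (-2.58) and had an adjusted p of 0.733 without control 2 and 0.104 without *Sox17*-cKO 2. *Abcb1a*, the drug efflux pump, *5930412G12Rik* and *Pcsk6*, a proprotein convertase, had no UMI in the *Sox17*-cKO libraries and were at least 10.4-, 10.1- and 9.79-fold lower there by the same floor. Without *Sox17*-cKO 2 their adjusted p were 0.212, 0.273 and 0.276.

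Among the genes called higher, *Rnase12* and *Mest* were also past the threshold in each fit with a library left out. *Rnase12*, of the pancreatic-type ribonuclease family, was at 20.1, 63.7, 464 and 278 CPM (log2 fold change 2.95, adjusted p = 0.0125, edgeR), and its value was 4.10 without control 2. *Mest*, an imprinted gene of embryonic tissues, was at 0, 13.1, 184 and 66.6 CPM (3.68, adjusted p = 0.0479), and without control 2, which held all its 7 control UMIs, the log2 fold change was 8.26, a value against a group with no UMI, and it was 2.86 without *Sox17*-cKO 1 and 4.33 without *Sox17*-cKO 2. The call of *Mest* was lost with DESeq2 (adjusted p = 0.873), with cells under 10% mitochondrial UMIs (0.0551) and with the gate of 5 UMIs (0.0921). That of *Rnase12* was lost with no upper limit on detected genes (0.07) and in the gated barcodes over 4500 genes alone (0.0878).

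The other 8 genes called higher lost the call without at least 1 library. All 8 also lost it with cells under 10% mitochondrial UMIs (adjusted p 0.0529 to 0.107, edgeR). With DESeq2 the call was lost for *Vcan* (adjusted p = 0.17), *Col4a4* (0.0662), *Ppp1r1b* (0.158), *Cybrd1* (0.175) and *Aqp1* (0.17). DESeq2 kept it for *Chrdl2*, *Ly6e* and *AU021092*. The gate of 5 UMIs ended it for *Vcan*, *Col4a4*, *Ly6e* and *Aqp1*. A required UMI of *Krt8* or *Cdh1* ended it for *Vcan* and *Aqp1*. With no upper limit on detected genes it was lost for *Chrdl2*, *AU021092*, *Col4a4*, *Ppp1r1b* and *Aqp1*. In the gated barcodes over 4500 genes alone it was lost for these and for *Cybrd1*. *Chrdl2*, a BMP antagonist of the chordin family, was at 64.4, 140, 414 and 611 CPM (2.24) with an adjusted p of 0.0868 (edgeR, as below) without control 1. *Ly6e*, an interferon-inducible surface protein, was at 72.5, 272, 962 and 1010 CPM (2.44) and had 0.0811 without control 1. *Col4a4*, a collagen of basement membranes, was at 32.2, 71.2, 219 and 226 CPM (1.98) and had 0.285 without control 1. Without control 2 the log2 fold changes of *Chrdl2*, *Ly6e* and *Col4a4* were 2.94, 3.70 and 2.72. *Vcan*, the matrix proteoglycan versican (2.14), and *Ppp1r1b*, a phosphatase inhibitor (1.83), lost the call without control 1 (0.133 and 0.149) and without control 2 (0.0907 and 0.236). *AU021092* (2.33) was at 1.65 on the log2 scale without *Sox17*-cKO 2, with 0.0714, and *Cybrd1*, a ferric reductase (2.09), was past the threshold only without *Sox17*-cKO 1, with 0.0811, 0.186 and 0.156 without control 1, control 2 and *Sox17*-cKO 2. *Aqp1*, the water channel, had 0, 1, 13 and 19 UMIs, a pooled ratio of 33.8 with an interval of 5.64 to 1375, and adjusted p of 0.298 without control 2 and 0.0822 without *Sox17*-cKO 1.

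In the 269 gated barcodes over 4500 genes, which share no barcode with the RT set but come from the same libraries, all 33 genes had the same sign of change. There 29 of 11632 genes (0.249%) were past the threshold, and 17 of these were among the 33. *Mme* was at 447, 531, 50.3 and 49.7 CPM in these barcodes (log2 fold change -3.30, adjusted p = 0.00224, edgeR), and *Rspo1* at 92.3, 96.9, 9.58 and 4.14 CPM (-4.26, adjusted p = 0.00303). *Sult1e1* was raised less, at 12.2, 13.6, 38.3 and 67.8 CPM (2.11, adjusted p = 0.0416). The log2 fold changes of *Ltbp1* (-0.93), *Aqp1* (1.68), *Eppin* (1.21), *Ppp1r1b* (0.96), *Col4a4* (1.22), *Sulf1* (-1.97), *Kctd14* (-1.99) and *Plat* (-2.31) were also smaller than in RT cells, by over 1.5 times as folds, and none of these 8 was past the threshold there. With both sets together, *Ltbp1* was at -1.17, *Aqp1* at 1.97, *Eppin* at 1.48 and *Ppp1r1b* at 1.05, none past the threshold. This second set is not independent of the first, since the same pooled pups gave both.

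**Figure D4:**
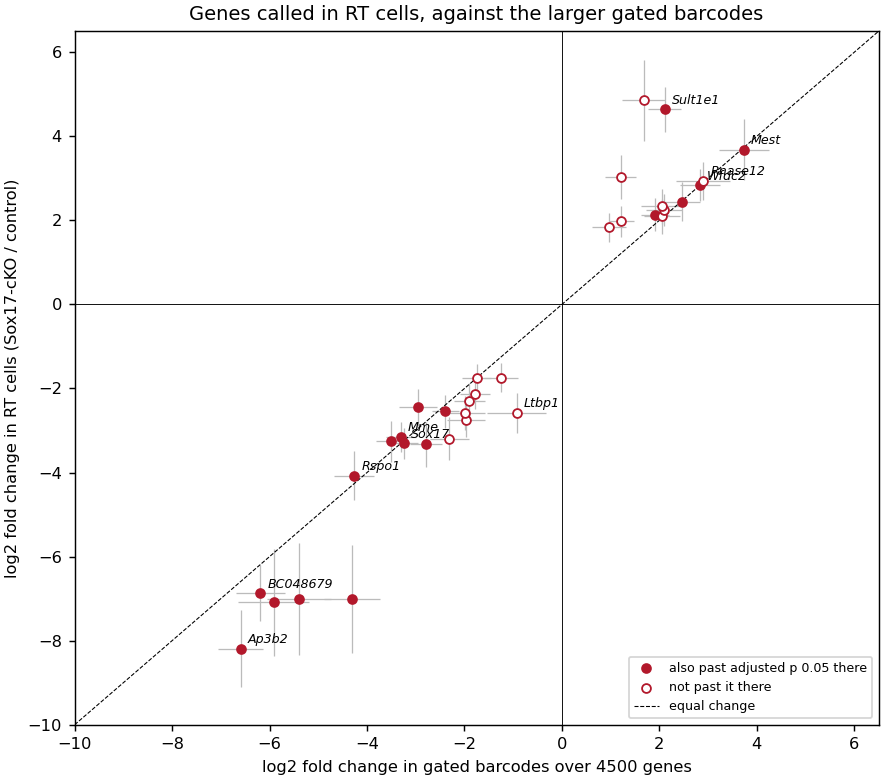
Log2 fold change (*Sox17*-cKO over control) of the 33 called genes in RT cells (y axis) against the 269 gated barcodes over 4500 detected genes (x axis), with SE as grey bars. All 33 lie to the lower left or upper right of the origin, and the 17 filled points were past the threshold on both axes.

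The change in RT cells was then set against the change in all other retained cells of the same libraries, with UMIs summed for both classes and the library as a block. The difference between the changes was past the threshold for 63 of 16058 genes (0.392%), and for 26 of the 33 genes called in RT cells. Against Sertoli-gated cells alone it was 18 of the 33, and 40 of the 63 genes were called in both. The 33 genes were called by their change in RT cells, which enters the difference. The large share among them is therefore no separate evidence. The count of 63 also changed when a library was left out, and the cause was not tested. In the other cells themselves edgeR called 0 of 17163 genes, with 22 at an unadjusted p under 0.05. The other cells differed more between replicates than between genotypes in genes such as *Mme*, so that this count does not show that nothing changed in them. The difference was -3.16 for *Mme* (SE 0.379, adjusted p = 5.2e-13), -3.74 for *Rspo1*, -2.74 for *Gas2l3* and 5.90 for *Sult1e1*, all from edgeR. *Mme* was at 59.4, 149, 56.4 and 144 CPM in the other cells, higher in both replicate 2 libraries. For *Sox17* the difference was -1.83 (SE 0.499, adjusted p = 0.0577, edgeR), so that its change was not shown to differ between the classes. The other cells held 0.982, 2.39, 0.448 and 0.697 CPM of *Sox17*, and endothelial-gated cells 267 CPM. *BC048679* and *Rnase12* were under 1.3 CPM in the other cells of every library, and their changes there went the same way as in RT cells. The other cells include cells just short of the selection, such as the 14 with 2 UMIs of *Pax8* and *Rmst* together. The part of such cells and of free RNA in the low levels of *Sox17*, *BC048679* and *Rnase12* was not tested.

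**Figure D5:**
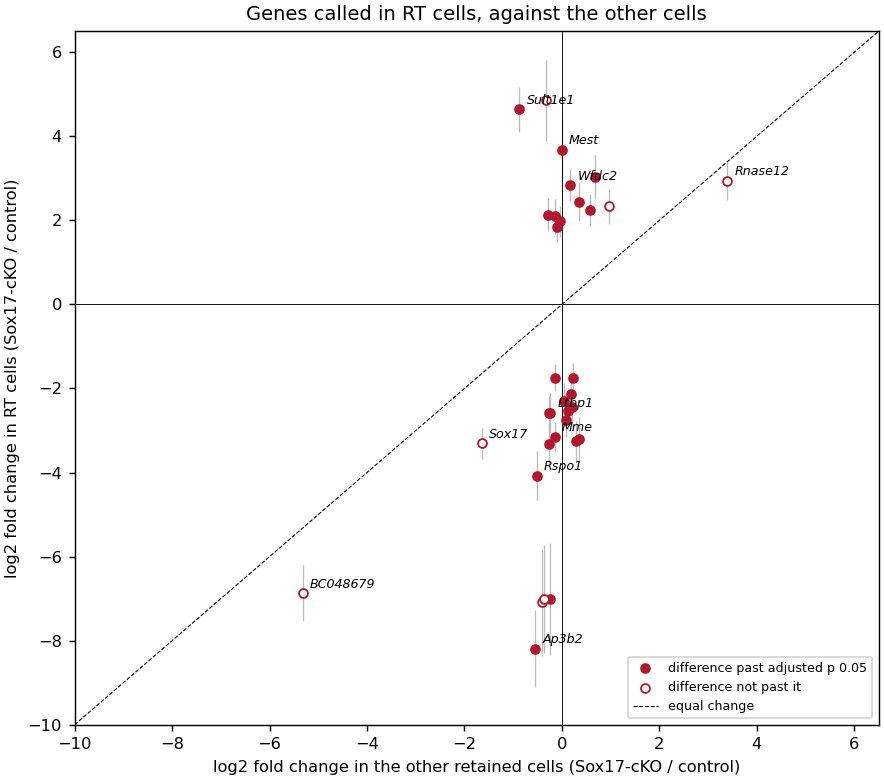
Log2 fold change (*Sox17*-cKO over control) of the 33 called genes in RT cells (y axis, with SE) against the other retained cells (x axis). The 26 filled points differed between the classes past the threshold, and *Sox17*, *BC048679* and *Rnase12* lie farthest from 0 on the x axis among the open points.

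Gene groups were counted over lists of genes that were drawn up with earlier results known and do not hold every called gene of a kind, beside 0.311% lower and 0.202% higher among all genes tested. Among 22 tested growth factors and other ligands, 2 fell (*Rspo1* and *Mdk*), none rose, and the median log2 fold change was -0.20, with 7 of the 22 lower and 5 higher without overlap between the groups. On a list of secreted antagonists and modulators of signals, to which the surface peptidase *Mme* had been added, 3 of 16 tested fell (*Mme*, *Dkk3* and *Ltbp1*) and the median was -0.49, with 8 of the 16 lower and 2 higher without overlap. *Chrdl2*, a BMP antagonist called higher, was not on the list, so that the count gives no direction for antagonists as a kind. Among all genes tested 15.4% were lower and 17.2% higher without overlap. *Nbl1*, a BMP antagonist, at 427, 590, 145 and 220 CPM, and *Bambi*, a pseudoreceptor of TGF-beta, at 157, 184, 74.8 and 62.9 CPM, did not overlap between the groups and were not past the threshold (adjusted p = 0.114 and 0.173, edgeR), but were with the replicate block (6.11e-08 and 0.000195). Both passed in other fits too, *Nbl1* with no filter on low counts (0.0103) and without *Sox17*-cKO 2 (0.0346), and *Bambi* without *Sox17*-cKO 1 (0.023).

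Of the ligands that the study names for these cells, *Rspo1* was past the threshold in the fit without a replicate block. The other 5 tested were not. The study's own single-cell comparison used these same samples and so is not independent evidence. Its in situ staining, done on older mice, is separate from these libraries. There the paper describes weaker signal in the mutant RT for *Rspo1*, *Fgf9* and *Tgfb2*, which was not examined here. *Tgfb2* changed by -0.76 on the log2 scale (SE 0.353, edgeR adjusted p = 0.817), with both *Sox17*-cKO libraries below both controls. With the replicate number as a block its change was -0.81 and past the threshold (edgeR adjusted p = 0.000155), so that its call depends on the block. Without *Sox17*-cKO 1 its value was -0.38 and without *Sox17*-cKO 2 -1.32. *Pdgfa* was at 44.3, 59.9, 44.9 and 24.1 CPM (-0.81, adjusted p = 0.965), with -1.20 without *Sox17*-cKO 1 and -0.29 without *Sox17*-cKO 2. *Wnt5a*, *Gdnf* and *Kitl* had values of -0.15, -0.17 and -0.34, and each changed sign with 1 library left out. *Fgf9* (12.1, 16.9, 15 and 16.7 CPM), *Fgf2*, *Fgf12* and *Wnt4* were too low to be tested, and *Fgf12* was at 24.2, 24.3, 9.97 and 3.70 CPM.

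Epithelial genes of the lists were not past the threshold in the main fit, which has no replicate block. Of 14 tested genes of keratins and epithelial adhesion none was called, with a median of 0.20 and with 6 higher and 2 lower without overlap. Of 10 tested genes of tight junctions and polarity none was called, with a median of -0.26 and 2 without overlap in each direction. *Krt8* had a log2 fold change of 0.57 (adjusted p = 0.989, edgeR), with both *Sox17*-cKO libraries above both controls. *Epcam* was at 24.2, 69.3, 135 and 166 CPM (1.55, adjusted p = 0.226), and passed with the block (0.000109), with no filter on low counts (0.0346) and without *Sox17*-cKO 1 (0.00386), while its value without control 2 was 2.58. *Cdh1* had a value of 0.10 that changed sign with 1 library left out, and so did *Foxj1* with -0.55.

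Of 17 tested transcription factors, *Sox17* fell and no other was called, with a median of -0.30 and with 7 lower and 3 higher without overlap. *Wt1* was at 495, 442, 244 and 311 CPM (-0.78, adjusted p = 0.657, edgeR, and 0.027 with the block). Among 12 tested genes of water and ion transport 1 rose (*Aqp1*), with a median of 0.41 and with 6 higher and 1 lower without overlap. Among 17 tested laminins and basement membrane genes 1 rose (*Col4a4*), with a median of 0.12 and with 6 higher and 4 lower without overlap. Of 10 tested interferon-inducible and MHC class I genes 1 rose (*Ly6e*), the median was 0.56, and 8 of the 10 had both *Sox17*-cKO libraries above both controls, against 17.2% of all genes tested.

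Of 10 tested WAP-domain and antimicrobial genes 1 rose (*Wfdc2*), with a median of 0.07 and with 4 higher and none lower without overlap. *Eppin*, which also has a WAP domain and was called higher, was not on this list. *Lcn2*, an iron-scavenging secreted lipocalin and also on that list, was at 242, 356, 858 and 690 CPM (1.33, adjusted p = 0.183, edgeR, and 2.31e-07 with the block and 0.0355 with no filter on low counts). No gene was called among 6 tested genes of retinoic acid metabolism (median -0.44), 20 of cilia (-0.20), 13 of the cell cycle (0.75) and 24 immediate early and heat shock genes (-0.27). Without overlap, 3 of the 6 retinoic acid genes, 5 of the 20 cilium genes and 6 of the 24 immediate early and heat shock genes were lower, with 0, 1 and 1 higher, and 4 of the 13 cell cycle genes were higher with 0 lower. *Aldh1a3*, which makes retinoic acid, was at 105, 103, 54.8 and 44.4 CPM (-1.13, adjusted p = 0.441, and 0.0246 with the block). Of 9 tested Sertoli markers, 6 germ cell markers and 4 fibroblast markers none was called either, with medians of -0.10, 0.51 and -0.34.

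The share of RT cells was 0.505% of retained cells in control 1 (exact Clopper-Pearson 95% interval 0.344 to 0.716), 1.18% in control 2 (0.903 to 1.51), 0.425% in *Sox17*-cKO 1 (0.272 to 0.631) and 1.09% in *Sox17*-cKO 2 (0.833 to 1.40). The intervals cover counting error only. The shares of the genotypes overlapped, with an exact two-sided permutation p of 0.667, where 0.33 is the smallest that 2 libraries against 2 allow, and the 2 replicate 1 libraries were both below the 2 replicate 2 libraries. With the barcodes over 4500 genes included, the shares were 0.801, 2.62, 0.448 and 2.13%.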

How the data were processed

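RNA of dissociated cells from the proximal testis at P14 was captured with the 10x Genomics 3′ kit (version 3 in the labels, 3.1 in the methods). The authors deposited UMI counts per gene and barcode, filtered by Cell Ranger (6.0.2 or 6.1.2 per the file headers, with STAR in the submitters' processing notes) against mm10 and not normalized. Cells with 1000 to 4500 detected genes were kept. The study's limit on mitochondrial UMIs (below 1%) was not applied, since 1 of the 177 RT cells met it, so that this set need not match the study's cells. RT cells, comparison gates, gene lists and tests were chosen with earlier results of these data known.

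UMIs were summed per library and compared with edgeR 4.0.16 (R 4.3.3, filterByExpr, TMM, quasi-likelihood F test, two-sided, Benjamini-Hochberg adjustment over all genes tested, threshold 0.05), a step tested on simulated data. The libraries, 2 a genotype, were the replicates. The SE of an edgeR log2 fold change, also in the figures, is its absolute value divided by the square root of the F statistic. It was worked back from the test and is not a separate estimate of the model. No scores or set tests were used. Named genes were the 25 highest and 10 lowest by ratio of RT cells to other cells (at least 100 RT UMIs and 20 in each library, or 100 CPM in the other cells), up to 15 a direction with the smallest p and no overlap, up to 10 a direction for the difference between classes, list examples, and the ligands the study names. Other genes given were chosen after their values were seen. Coordinates are from GENCODE vM21 (GRCm38) and promoters from RefSeq. Alternatives were DESeq2 1.42.0, no filter on low counts, the replicate number as a block, each library left out, under 10% mitochondrial UMIs, a gate of 5 UMIs, a required UMI of *Krt8* or *Cdh1*, no upper gene limit and cells low in germ and Sertoli markers, and, added after the data were seen, the gated barcodes over 4500 genes alone.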

Additional observations from a re-analysis of the deposited data

Results flagged for a closer look

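For 25 of the 30 genes named by genotype, the change in RT cells differed from that in all other retained cells past the threshold (edgeR interaction, adjusted p under 0.05), against 63 of all 16058 genes tested (0.392%), 12 of which were also called by DESeq2. The 30 genes were chosen by their change in RT cells, which enters the difference, so the larger share among them is no separate evidence. The values are differences of log2 fold changes, RT cells minus other cells. The change was more positive in RT cells for *Sult1e1* (5.90), *Mest* (3.99), *Col11a1* (2.67), *Vcan* (2.54), *Eppin* (2.36), *Sgk1* (2.36), *Wfdc2* (2.33), *Ly6e* (2.31), *Cybrd1* (2.18), *Col4a4* (2.18), *Ppp1r1b* (1.86) and *Chrdl2* (1.70). It was more negative in RT cells for *Rspo1* (-3.74), *Plat* (-3.71), *Lbhd2* (-3.62), *Mme* (-3.16), *Tspan13* (-3.05), *Sulf1* (-2.85), *Gpm6b* (-2.74), *Gas2l3* (-2.74), *Dkk3* (-2.47), *Kctd14* (-2.40), *Gatm* (-2.37) and *Mdk* (-1.82). For *Ap3b2* the fitted difference was -13.18, a value that depends on the fit because the *Sox17*-cKO RT cells held no UMI. *Sgk1*, a kinase induced by glucocorticoids, was at 44.3, 56.2, 120 and 357 CPM in RT cells and *Col11a1*, a fibrillar collagen, at 12.1, 9.36, 49.9 and 70.3 CPM, and both missed the threshold in RT cells alone (adjusted p = 0.0636 and 0.0642, edgeR), and passed it with the replicate block (1.28e-11 and 7.02e-05) and with no filter on low counts (1.34e-05 and 0.00404). Without *Sox17*-cKO 2 the log2 fold change of *Sgk1* was 1.19 in place of 2.24 (adjusted p = 0.295), and *Col11a1* had adjusted p of 0.804 without *Sox17*-cKO 2 and 0.546 without control 2.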

How the results depend on the processing

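The 33 calls between genotypes became 17 with DESeq2, 94 of 15070 genes with no filter on low counts, 16 with cells under 10% mitochondrial UMIs and 20 with the gate of 5 UMIs. With each library left out in turn they ranged from 27 to 99, and no called gene changed sign. The cause of these differences was not tested. The 63 genes that differed between RT and other cells became 12 with DESeq2 and 33 to 69 with a library left out. *Sox17* stayed past the threshold in all 12 alternatives that changed the input (-3.42 to -3.14).

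With the replicate block the count was 241, with all 33 calls among them. The correlation of deviations was 0.317 in both pairs, which is 1 value by construction with 2 libraries a group. It was positive, so differences between the replicate numbers tended to go the same way in both genotypes. The labels number only some libraries, and pairing by design was not established. The block was fitted to all 6424 genes, but its values were read singly for a part of the named genes only. That part leaves out most of those named only by level and those named only by the difference between classes. In it, 9 genes were past the threshold with the block and not in the main design without it. They were *Tgfb2*, *Epcam*, *Lcn2*, *Wt1*, *Nbl1*, *Bambi*, *Aldh1a3*, *Sgk1* and *Col11a1* (block adjusted p 1.28e-11 to 0.027, edgeR). Some of these 9 also passed in other fits.

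With a library left out, changes of sign were seen for *Wnt5a* (-0.77 to 0.095), *Gdnf* (-0.49 to 0.25), *Kitl* (-0.54 to 0.044), *Cdh1* (-0.12 to 0.41) and *Foxj1* (-1.11 to 0.12), none past the threshold, and for the share of RT cells (-0.423 to 0.251 percentage points, -0.0858 with all libraries). The limit on germ and Sertoli markers removed no cell, so it could not move a value.

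Depth limits these results: 24 RT cells of *Sox17*-cKO 1 held 200593 UMIs, and 1 UMI there was 4.99 CPM, so that low genes were not tested.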

Other observations

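Beyond the genes called within RT cells, other genes entered by the difference between RT cells and the other retained cells. *Cd74*, the invariant chain of MHC class II, was at 133, 376, 94.7 and 88.8 CPM in RT cells and at 0.531 CPM in germ-gated and 0.997 CPM in fibroblast-gated cells. These classes are only a part of the other cells, which also held macrophage markers (sums of 38.3, 354, 93.1 and 289 CPM). The level of *Cd74* in macrophages was not examined. *Igfbp7*, a binding protein of insulin-like growth factors, was at 20.1, 33.7, 199 and 83.3 CPM, *Ogn*, a small leucine-rich proteoglycan, at 12.1, 13.1, 105 and 42.6 CPM, and *Palld*, an actin-binding protein, at 113, 140, 464 and 261 CPM. *Serpinf1*, an inhibitor of blood vessel growth, was at 44.3, 120, 0 and 13.0 CPM. None of these 5 was past the threshold in RT cells alone (edgeR), with adjusted p of 0.272, 0.120, 0.195, 0.183 and 0.0636.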
